A study of Drosophila melanogaster with 12 samples.

Results

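Circular RNAs (circRNAs) were compared between carcasses of Nxt1 and wildtype (WT) Drosophila melanogaster larvae. Every circle that the deposited lists of the 2 genotypes hold was taken, and circles were matched by transcript and exon numbers. The lists name 729 circles from 510 host genes, 467 circles in Nxt1 and 597 in WT. A circle is called here by its host and its first and last exon, so that stw exon 2 is exon 2 of the stw transcript joined end to start. The listed names were read as transcript, last exon and first exon. No source used here gives this order, which was inferred from the values.

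The Nxt1 group was trans-heterozygous for Nxt1 mutations and is listed under the strain yw, and the WT group was of the strain w1118, so genotype and strain background cannot be told apart. Both came from stationary larvae of the third instar, staged on food with 0.05% bromophenol blue, with internal tissues removed. The circles come from 3 RNase R libraries of each genotype, which are 6 of the 12 libraries of the series. The other 6 were mock-treated with water and give mRNA of the same genotypes. The labels do not say whether replicates were separate pools of larvae, so p-values measure only the spread between these libraries, which may be technical.

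A circRNA forms when the spliceosome joins the end of an exon to the start of the same exon or of one upstream, a reaction called back-splicing. With no free end, circles resist exonucleases such as RNase R, which degrades linear RNA, and they are read from the junction that linear mRNA does not contain. Nxt1 is the small partner of sbr, the receptor that carries mRNA out of the nucleus. The larval carcass is body wall, with muscle below an epidermis that secretes and tans the cuticle, and the hosts are described below by their roles there. The labels give the effect of Nxt1 on circRNA expression as the question.

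For each circle the reads of 2 of the 3 libraries of a genotype are given, and which 2 differs between circles. The libraries were told apart by the total that reads and scaled values imply. These totals were 48182700, 71326500 and 78946600 reads in Nxt1 and 69690700, 78830800 and 92273200 reads in WT, and the libraries are called the shallow, the middle and the deep one of each genotype below. The level is the number of back-splice reads per 1e+09 library reads. Replicates of one circle differed widely, by a median factor of 1.72 between the Nxt1 libraries and 1.49 between the WT libraries of the circles in both lists. Nxt1 mRNA, which checks the labels, was 6.03, 6.57 and 5.72 FPKM in Nxt1 carcasses, against 10.7, 8.31 and 9.91 FPKM in WT carcasses (adjusted p = 0.0164, limma), with no overlap. Muscle markers made up 61551 to 78112 per 1000000 recovered mRNA reads in Nxt1 and 30996 to 66505 in WT, with 8 of 8 markers present. Epidermis and cuticle markers made up 37956 to 47235 per 1000000 in Nxt1 and 16558 to 24900 in WT. Salivary gland markers were at 142 to 407 per 1000000 in Nxt1 and 15.03 to 114 in WT. Fat body markers were at 4798 to 6887 per 1000000 in Nxt1 and 3365 to 4214 in WT, and trachea markers at 2625 to 3212 in Nxt1 and 2075 to 2540 in WT. Neuron markers were at 34.8 to 42.7 per 1000000 in Nxt1 and 52.4 to 53.6 in WT, and imaginal disc markers at 24.0 to 34.3 in Nxt1 and 41.1 to 53.3 in WT. Midgut markers (14.9 to 122 in Nxt1, 3.39 to 68.0 in WT) and hemocyte markers (609 to 775 in Nxt1, 640.4 to 831 in WT) overlapped. In bulk RNA, more cells of a type and more RNA per cell cannot be told apart. The part of these shifts in the circle results was not tested.

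Most of the circular signal was common to both genotypes. Of the listed circles, 335 were in both lists, which is 71.7% of the Nxt1 list and 56.1% of the WT list. A further 132 were listed in Nxt1 alone and 262 in WT alone. Absence from a list is no measured 0, since no source used here gives the rule by which a circle was listed. The shared circles held 94.8% of the summed level in Nxt1 and 89.6% in WT. Their median was 26.5 reads in Nxt1 and 43.5 in WT, as the mean of 2 libraries. The circles listed in 1 genotype alone were weak, with a median of 8.5 reads in Nxt1 and 11 in WT. The highest circle listed alone had 57.5 reads in Nxt1 and 131 in WT. A library with a single read stood behind 47 circles in Nxt1 and 56 in WT.

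**Figure D1:**
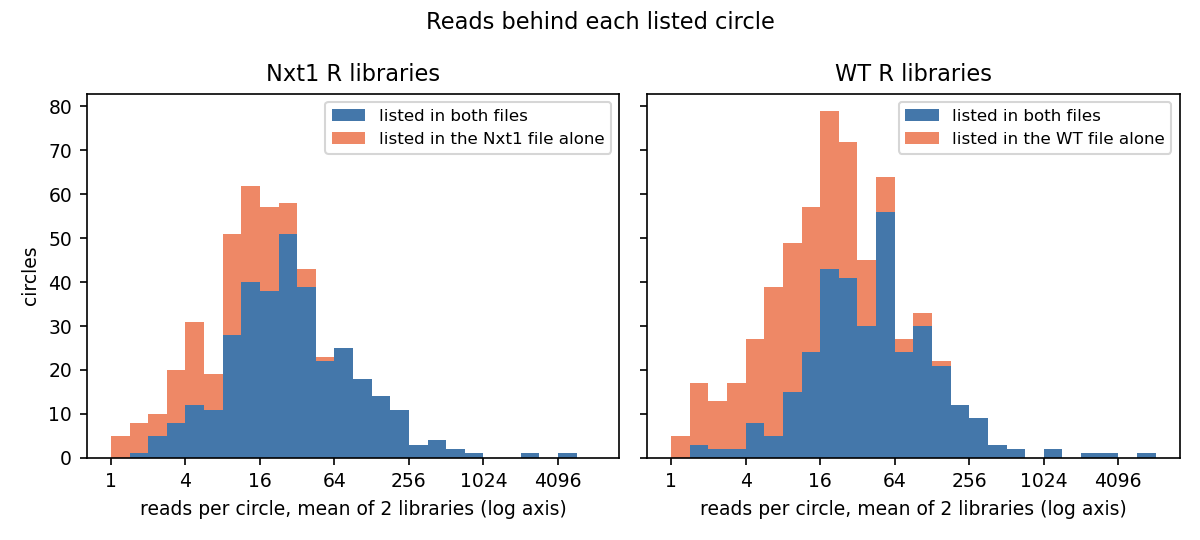
Number of circles (vertical axis) by back-splice reads per circle, mean of 2 libraries (horizontal log axis), in Nxt1 (left) and WT (right). Circles in both lists are blue and those in 1 list alone orange; the orange bars lie to the left, with medians of 8.5 reads in Nxt1 and 11 in WT, against 26.5 and 43.5 for the blue ones.

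The hosts overlapped more than the circles did. There were 366 hosts in Nxt1 and 446 in WT, and 302 were in both, which is 82.5% of the Nxt1 hosts and 67.7% of the WT hosts. In 26 of the 302 no circle had the same transcript and exon numbers in both lists. Of the circles listed in Nxt1 alone, 65 had a host with another circle in WT, and of those in WT alone, 107 had a host with another circle in Nxt1. For 12 circles the other list held the same exon numbers of the same host under another transcript. CG31688 exon 2, for example, had 41 and 17 reads in Nxt1 under one transcript and 118 and 108 reads in WT under another. Counting circles by host and exon numbers gave 347 shared, 116 in Nxt1 alone and 247 in WT alone. This count also merges circles within a list that have the same host and exon numbers. Most hosts, 365, gave 1 circle, and 13 gave 4 or more.

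No circle began before exon 2, and the first circular exon was exon 2 in 46.0% of the shared circles, 45.5% of those in Nxt1 alone and 45.8% of those in WT alone. Among the shared circles 105 held 1 exon, 134 held 2 and 96 held 3 or more. Those listed in Nxt1 alone had 33, 37 and 62 circles in these classes, and those in WT alone had 89, 75 and 98. The median log2 fold of the shared circles, Nxt1 over WT, was -0.54 for 1 exon, -0.24 for 2 and -0.15 for 3 or more.

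Summed over all listed circles, the level was 448853 per 1e+09 library reads in Nxt1 and 533238 in WT, a ratio of 0.842. The list is also shorter in Nxt1, and the mean level per listed circle was 961 in Nxt1 and 893 in WT. Over the 335 shared circles the ratio of the sums was 0.891. The median log2 fold of a shared circle was -0.26 (Nxt1 over WT). It differed with the libraries a circle carried. It was -0.09 for the 147 circles with the shallow and middle Nxt1 libraries and -0.16 for the 100 circles with the shallow and deep ones. For the 88 circles with the middle and deep ones it was -0.55. By WT libraries it was -0.51 for the 133 circles with the shallow and middle ones, -0.03 for the 90 with the shallow and deep ones and -0.22 for the 112 with the middle and deep ones. The shallow Nxt1 library gave a median scaled level 1.34 times that of the middle library and 1.56 times that of the deep library for the same circles. With library factors set by the median of ratios the median log2 fold was 0.00.

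A few circles carried much of the signal, and they came from genes of cuticle tanning, glycogen and muscle. The 3 most abundant circles held 28.7% of the summed level in Nxt1 and 29.1% in WT. The first, stw exon 2 (listed as NM_001273780.2.2), alone held 15.9% in Nxt1 and 15.1% in WT. The gene stw encodes a laccase that cross-links the cuticle. This circle stood at 82561 and 60446 per 1e+09 reads in the Nxt1 libraries, against 79753 and 81335 in the WT libraries. The groups overlapped, and the log2 fold of -0.17 (SE 0.21) did not pass the test (adjusted p = 0.638, edgeR). Without the shallow Nxt1 library it was -0.41 and passed (adjusted p = 0.00824, edgeR), and without the deep Nxt1 library it was 0.04 (adjusted p = 0.587, edgeR), so the sign turned with the library left out.

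Gyg exon 2 to 4 comes from glycogenin, which primes glycogen. It stood at 42567 and 38765 in Nxt1, against 46264 and 47079.5 in WT. Both Nxt1 values lay below both WT values, yet the log2 fold of -0.20 (SE 0.22) did not pass the test (adjusted p = 0.607, edgeR). Its host mRNA passed in the other direction, with 725, 714 and 649 FPKM in Nxt1 and 412, 300.0 and 464 in WT (log2 fold 0.85, adjusted p = 0.0204, limma).

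The third, tn exon 7, comes from thin, the fly TRIM32, a ubiquitin ligase that maintains muscle. It stood at 16188 and 17497 in Nxt1, against 23836 and 32573 in WT. The groups did not overlap, and the log2 fold was -0.74 (SE 0.25, adjusted p = 0.0867, edgeR), short of the threshold. DESeq2 gave an adjusted p of 0.0404, and over all alternatives it ranged between 0.00184 and 0.395. The tn mRNA was 400.5, 520.4 and 570.1 FPKM in Nxt1 and 629, 703 and 612 in WT (log2 fold -0.39, adjusted p = 0.110, limma).

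Below these came larp exon 2, of a La-related RNA-binding protein, with 11083 and 8973 in Nxt1 and 13776 and 17305 in WT. Next was tai exon 3 to 4, of the ecdysone receptor coactivator taiman, with 10709 and 6351 in Nxt1 and 14829 and 14077 in WT. Then came Pka-C3 exon 2, of a protein kinase A catalytic subunit, and IRSp53 exon 2, of a membrane-curving actin regulator. All 4 were lower in both Nxt1 libraries than in both WT libraries, with log2 folds between -0.76 and -0.59, and none passed the test (adjusted p between 0.137 and 0.241, edgeR). Of all 335 shared circles 32.8% were lower without overlap. With library factors by the median of ratios the 4 log2 folds were between -0.58 and -0.35 (adjusted p between 0.110 and 0.429, edgeR). tai exon 3 to 4 passed without the shallow Nxt1 library (log2 fold -1.19). IRSp53 exon 2 has no value from the middle WT library. Leaving that library out kept its log2 fold at -0.69, and it passed when refitted only with other circles lacking that library (adjusted p = 0.0229, edgeR). The exception among the abundant circles was cnc exon 3, described next.

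**Figure D2:**
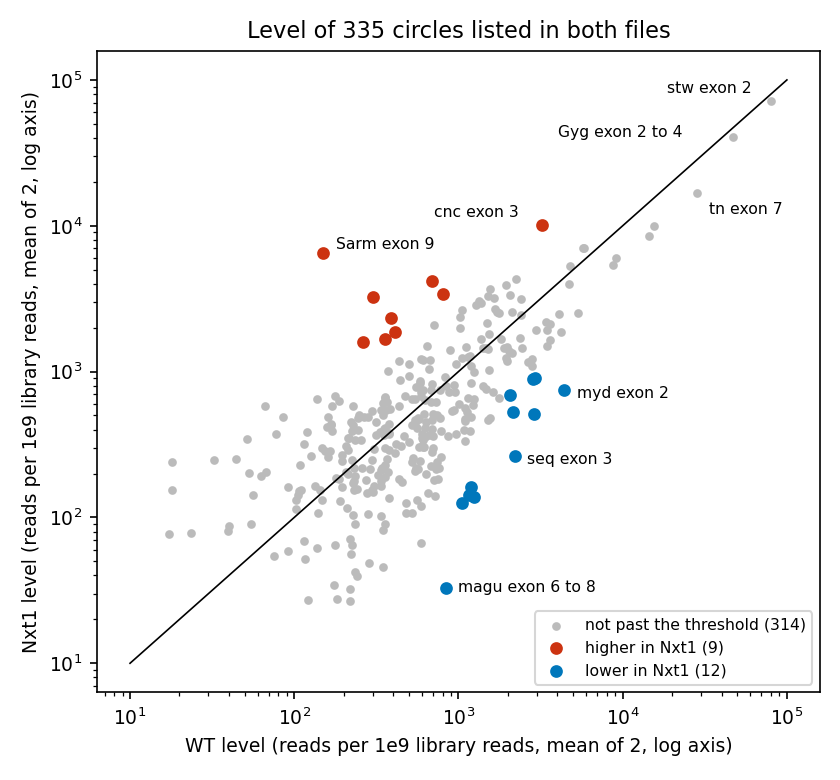
Level of each of the 335 circles in both lists, as back-splice reads per 1e+09 library reads (mean of 2 libraries), in Nxt1 (vertical log axis) and WT (horizontal log axis); the line marks equal levels. The 9 circles that were higher in Nxt1 are red, the 12 lower ones blue, and the most abundant, stw exon 2, lies near the line.

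Across the shared circles 9 rose and 12 fell in Nxt1 at a Benjamini-Hochberg adjusted p under 0.05 (edgeR quasi-likelihood), which is 2.69% and 3.58% of the 335 tested, and 6.27% in either direction. Unadjusted p-values under 0.05 numbered 30 higher and 47 lower. With library factors by the median of ratios the calls were 25 higher and 20 lower. In 65 circles (19.4%) both Nxt1 values lay above both WT values, in 110 (32.8%) both lay below, and in 160 the groups overlapped. Of the 9 that rose, 8 carried the shallow and middle Nxt1 libraries. Without the shallow Nxt1 library 3 rose and 15 fell, and without the middle WT library 4 rose and 4 fell. A circle without a value from the library left out kept all its values and was refitted only with other circles lacking that library. Each of the 21 had both Nxt1 values on one side of both WT values. Leaving out a library thus could not turn their direction, and the 21 kept it in all 10 alternatives. Those that passed the threshold in each of them were Sarm exon 9, Lmpt exon 3 to 5, myd exon 2 and CG6006 exon 3 to 4.

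The largest difference was in Sarm exon 9. Sarm is a TIR-domain protein that breaks down NAD and drives the degeneration of cut axons. Its exon 9 circle (listed as NM_001104075.9.9) had 322 and 447 reads in Nxt1, a level of 6683 and 6267, against 18 and 5 reads in WT, a level of 228 and 71.7. The log2 fold was 5.39 (SE 0.50, adjusted p = 1.62e-06, edgeR). The gene gave 3 other circles. Sarm exon 3 to 4 had 51 and 63 reads in Nxt1 and 99 and 140 in WT (log2 fold -0.94, adjusted p = 0.224, edgeR). Sarm exon 2 to 3 had 6 and 41 reads in Nxt1 and 11 and 27 in WT (log2 fold 0.71, adjusted p = 0.684, edgeR). Sarm exon 2 to 4 was listed in Nxt1 alone, with 1 and 2 reads. The Sarm mRNA was 581, 614 and 575 FPKM in Nxt1 and 611, 520.3 and 633 in WT, with overlapping groups (log2 fold 0.01, adjusted p = 0.960, limma).

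Lmpt exon 3 to 5 rose next. Lmpt, or Limpet, is a LIM-domain protein of muscle. The circle had 165 and 219 reads in Nxt1, against 21 and 28 in WT (log2 fold 3.42, SE 0.45, adjusted p = 0.000128, edgeR). A second circle, Lmpt exon 4 to 5, was listed in WT alone with 20 and 58 reads. Its host mRNA was 482, 597 and 570.0 FPKM in Nxt1 and 420, 450.5 and 375 in WT (log2 fold 0.40, adjusted p = 0.0568, limma).

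grh exon 2 had 86 and 99 reads in Nxt1 and 14 and 30 in WT (log2 fold 2.57, adjusted p = 0.0152, edgeR). Grainy head is the transcription factor that sets up and repairs the epidermal barrier. A second grh circle, exon 4 to 5, was listed in Nxt1 alone with 12 and 19 reads, and the grh mRNA did not pass the test (log2 fold 0.17, adjusted p = 0.398, limma). sas exon 5 to 6 had 95 and 125 reads in Nxt1 and 30 and 31 in WT (log2 fold 2.17, adjusted p = 0.0152, edgeR). The gene sas, stranded at second, encodes an apical surface protein of epithelia. Its exon 3 circle had 21 and 27 reads in Nxt1 and 37 and 67 in WT (log2 fold -0.63, adjusted p = 0.614, edgeR). Both grh exon 2 and sas exon 5 to 6 missed the threshold without the shallow Nxt1 library (log2 folds 2.38 and 2.08) or without the shallow WT library (both 2.28). sas exon 5 to 6 also missed it without the middle WT library (log2 fold 2.06). grh exon 2 has no value from that library and missed the threshold when refitted with other circles lacking it (adjusted p = 0.112, edgeR).

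mol exon 2 to 4, of the maturation factor of the dual oxidase Duox, had 269 and 197 reads in Nxt1 and 71 and 33 in WT (log2 fold 2.59, adjusted p = 0.00191, edgeR). mol exon 4 to 5 had 13 and 7 reads in Nxt1 and 19 and 28 in WT (log2 fold -0.64, adjusted p = 0.717, edgeR). Rgk3 exon 3 to 6, of a small GTPase of a family that restrains calcium channels in mammals, had 205 and 145 reads in Nxt1 and 42 and 23 in WT (log2 fold 2.57, adjusted p = 0.00263, edgeR). cnc exon 3 comes from the fly homologue of Nrf2, a regulator of oxidative stress genes. It had 527 and 663 reads in Nxt1 and 172 and 297 in WT (log2 fold 1.65, adjusted p = 0.00708, edgeR). CG30427 exon 2 to 3 had 96 and 96 reads in Nxt1 and 29 and 32 in WT (log2 fold 2.22, adjusted p = 0.0206, edgeR). The rise of mol missed the threshold without the shallow Nxt1 library (adjusted p = 0.0579, edgeR) and that of Rgk3 without the deep Nxt1 library (adjusted p = 0.134, edgeR). cnc missed it without the shallow Nxt1 library or the middle WT library (adjusted p up to 0.251, edgeR). CG30427 missed it without either of these or the deep WT library (adjusted p up to 0.133, edgeR).

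Pde6, a cGMP phosphodiesterase, gave 6 circles. Its exon 3 circle rose, with 200 and 189 reads in Nxt1 and 63 and 56 in WT (log2 fold 2.08, adjusted p = 0.00425, edgeR). Without the shallow Nxt1 library or the middle WT library it missed the threshold (adjusted p up to 0.0595, edgeR). Pde6 exon 5 to 6 had 40 and 35 reads in Nxt1 and 125 and 136 in WT, without overlap in the other direction (log2 fold -1.43, adjusted p = 0.0867, edgeR). The Pde6 mRNA did not pass the test (log2 fold 0.22, adjusted p = 0.242, limma). In Sarm, sas, mol and Pde6, shared circles of one host thus had log2 folds of both signs. In each host 1 circle passed the test, with a positive fold, and none with a negative fold did. Hosts without a circle past the threshold, such as bol, hep and Parp1, also had folds of both signs. Of all 335 shared circles 143 had a fold above 0 and 192 one below 0. Whether the circles of one host differ in their change was not tested.

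**Figure D3:**
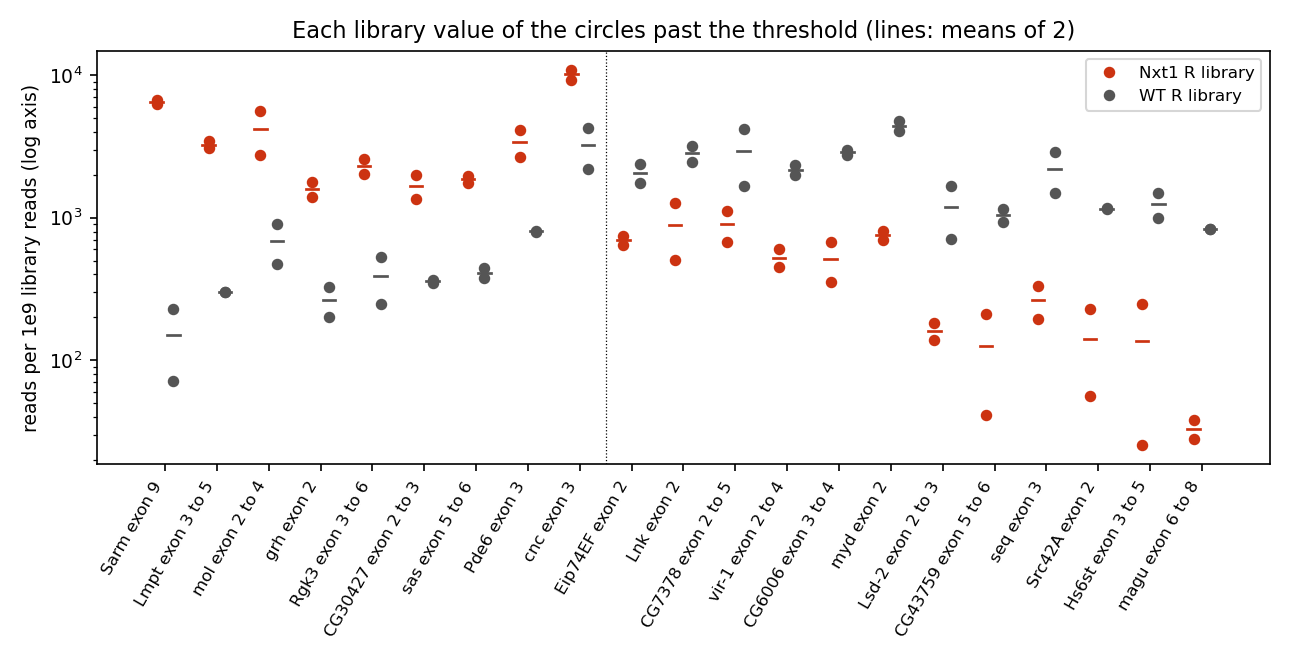
Level of the 21 circles that passed the test, as back-splice reads per 1e+09 library reads (vertical log axis), with 1 point per library, 2 for Nxt1 (red) and 2 for WT (grey), and lines at their means. For each circle along the horizontal axis the Nxt1 points lie on one side of the WT points, above them for the 9 circles on the left and below them for the 12 on the right, and the means are farthest apart for Sarm exon 9.

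Among the falls, magu exon 6 to 8 changed most. Magu is a secreted protein that widens the range of BMP signalling. Its circle had 3 and 2 reads in Nxt1, against 66 and 58 in WT (log2 fold -4.59, SE 0.91, adjusted p = 0.00420, edgeR). With so few reads in Nxt1 the size of the fold is imprecise, and without the deep Nxt1 library it missed the threshold (adjusted p = 0.0744, edgeR). The magu mRNA lay the other way, with 99.1, 88.7 and 103 FPKM in Nxt1 and 59.5, 63.9 and 85.0 in WT (log2 fold 0.49, adjusted p = 0.0625, limma).

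Hs6st exon 3 to 5, of a heparan sulfate sulfotransferase, had 12 and 2 reads in Nxt1 and 117 and 92 in WT (log2 fold -3.28, adjusted p = 0.0169, edgeR). Src42A exon 2, of a Src-family kinase, had 11 and 4 reads in Nxt1 and 80 and 108 in WT (log2 fold -3.08, adjusted p = 0.0161, edgeR). Its host mRNA fell as well (log2 fold -0.52, adjusted p = 0.0172, limma), and Src42A exon 6 to 7 had a log2 fold of -0.25 (adjusted p = 0.841, edgeR). Lnk exon 2, of an adaptor in insulin signalling, had 40 and 91 reads in Nxt1 and 252 and 172 in WT (log2 fold -1.67, adjusted p = 0.0310, edgeR), and its mRNA fell (log2 fold -0.32, adjusted p = 0.0167, limma). Without the middle WT library, Hs6st, Src42A and Lnk missed the threshold. Src42A exon 2 has no value from that library and was refitted with other circles lacking it (adjusted p = 0.251, edgeR). Hs6st also missed the threshold without the deep Nxt1 library, and without the middle one, from which it has no value (adjusted p = 0.137, edgeR). Src42A also missed the threshold without either of the other WT libraries, and Lnk without the deep Nxt1 library.

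seq exon 3, of the zinc finger protein sequoia, had 16 and 14 reads in Nxt1 and 202 and 138 in WT (log2 fold -3.07, adjusted p = 0.00172, edgeR). Eip74EF exon 2, of an ecdysone-induced ETS factor, had 31 and 59 reads in Nxt1 and 187 and 123 in WT (log2 fold -1.57, adjusted p = 0.0397, edgeR), and missed the threshold in 6 of 10 alternatives. Lsd-2 exon 2 to 3, of a perilipin of lipid droplets, had 11 and 13 reads in Nxt1 and 132 and 65 in WT (log2 fold -2.88, adjusted p = 0.0149, edgeR). Without the middle WT library all 3 missed the threshold. The log2 fold there was -1.34 for Eip74EF and -2.12 for Lsd-2. seq exon 3 has no value from that library and was refitted with other circles lacking it (adjusted p = 0.0841, edgeR). seq also missed the threshold without the shallow WT library, and Lsd-2 without the deep Nxt1 library.

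The falls that passed in every alternative were in genes named here without a role. myd exon 2 had 39 and 55 reads in Nxt1 and 331 and 377 in WT (log2 fold -2.55, SE 0.38, adjusted p = 0.000343, edgeR), while its mRNA rose (log2 fold 0.52, adjusted p = 0.0334, limma). CG6006 exon 3 to 4 had 28 and 48 reads in Nxt1 and 217 and 277 in WT (log2 fold -2.49, adjusted p = 0.00172, edgeR), and its mRNA fell (log2 fold -0.71, adjusted p = 0.0281, limma). The remaining falls were CG43759 exon 5 to 6, vir-1 exon 2 to 4 and CG7378 exon 2 to 5, with log2 folds of -2.97, -2.04 and -1.71, and all 3 missed the threshold without the middle WT library (adjusted p over all alternatives up to 0.251, 0.0601 and 0.554, edgeR). The CG7378 mRNA rose (log2 fold 0.71, adjusted p = 0.00650, limma).

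Of all 8923 genes tested for mRNA, 5.54% were hosts of a listed circle. Of 34 genes of the sarcomere and of muscle structure, 29 were tested for mRNA and 6 were hosts: Prm, bt, Tm2, tn, cher and Lmpt. Whether a list holds more hosts than other genes was not tested here or for the lists below. They gave 17 circles, of which 3 were in both lists, 5 in Nxt1 alone and 9 in WT alone. Among the 3 shared, Lmpt exon 3 to 5 rose and none fell. For comparison with this list and those below, 2.69% of all 335 shared circles rose and 3.58% fell (edgeR). cher exon 2 to 4, of the actin cross-linker filamin, had 2 and 31 reads in Nxt1 and 1 and 2 in WT (adjusted p = 0.137, edgeR). The gene bt encodes projectin, a giant elastic protein of the sarcomere. It gave 6 circles and none was shared. Exons 12 to 16 (21 and 43 reads), 6 to 8 (18 and 19) and 4 to 5 (10 and 1) were listed in Nxt1 alone. Exons 17 to 21 (8 and 19 reads), 9 to 12 (10 and 4) and 3 to 4 (2 and 2) were listed in WT alone.

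The mRNA of sarcomere hosts rose where it passed the test, in 3 of the 6. Of all 29 tested genes of this list 12 rose and 1 fell, so the rise was not limited to hosts. Of all 8923 genes tested 12.5% rose and 9.10% fell (limma). The bt mRNA had a log2 fold of 1.23 (adjusted p = 0.0172, limma), that of Prm, paramyosin of the thick filament, 1.37 (adjusted p = 0.00673, limma), and that of Tm2, a tropomyosin, 1.03 (adjusted p = 0.0465, limma). A Prm circle, exon 3 to 7, was listed in Nxt1 alone with 4 and 12 reads, and Tm2 exon 2 to 3 in WT alone with 19 and 17. Of the 8 muscle markers 3 rose and 0 fell, the ranges of their sum given above overlap, and their part in these values was not tested.

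Of 30 attachment and basement membrane genes 6 were hosts, with 6 shared circles, 1 in Nxt1 alone and 2 in WT alone. One rose, sas exon 5 to 6, and none fell. The list counts sas although its product is the apical surface protein described above, so this rise is not one of a basement membrane gene. Tsp, thrombospondin of the tendon matrix, gave exon 4 to 7 with 25 and 43 reads in Nxt1 and 149 and 33 in WT, with overlap. The integrin genes mew and mys also hosted circles, with mew exon 5 to 6 at 5 and 15 reads in Nxt1 and 18 and 23 in WT. Of 28 genes of calcium handling and excitation 6 were hosts, with 2 shared circles (Sh exon 12 and CaMKI exon 4 to 6), 3 in Nxt1 alone and 2 in WT alone, and neither shared circle passed the test. The mRNA of Cam, calmodulin, whose circle was listed in Nxt1 alone (2 and 23 reads), rose (log2 fold 0.68, adjusted p = 0.00648, limma). The mRNA of the calcium channel gene Ca-alpha1T, whose circle was listed in WT alone (1 and 1 reads), fell (log2 fold -1.23, adjusted p = 0.00137, limma).

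Of 18 muscle identity genes 6 were hosts, with 2 shared circles, 2 in Nxt1 alone and 5 in WT alone. Mef2, the central transcription factor of muscle, gave exon 2 to 3 in both lists (7 and 10 reads in Nxt1, 5 and 13 in WT) and a pair of other circles in WT alone. Of 41 genes of RNA binding and splicing 6 were hosts. In mbl, muscleblind, a splicing factor known for its own circle, exon 6 to 9 had 25 and 6 reads in Nxt1 and 4 and 22 in WT, with overlap, and exon 5 to 6 was listed in WT alone with 27 and 15. The mbl mRNA fell (log2 fold -0.59, adjusted p = 0.00881, limma). pum exon 4 to 6, of the translational repressor pumilio, had 136 and 195 reads in Nxt1 and 69 and 86 in WT, just short of the threshold (log2 fold 1.33, adjusted p = 0.0615, edgeR).

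Of 46 genes of cuticle structure and chitin 8 were hosts, with 7 shared circles, 0 in Nxt1 alone and 4 in WT alone. None of the 7 rose or fell, where 6.27% of all 335 shared circles did. Their median log2 fold was 0.10, against -0.26 over all shared circles. The SEs of the 7 folds were 0.79 to 1.04, and this difference was not tested. The hosts include Cht10, a chitinase, and serp, a chitin deacetylase, with serp exon 2 to 3 at 16 and 43 reads in Nxt1 and 24 and 28 in WT. The widest difference was in obst-B exon 3 to 4, of a chitin-binding protein, with 11 and 3 reads in Nxt1 and 34 and 21 in WT (log2 fold -1.94, adjusted p = 0.247, edgeR). The obst-B mRNA rose (log2 fold 0.66, adjusted p = 0.0298, limma). exp exon 3 to 7 (45 and 22 reads) and verm exon 3 to 4 (10 and 24) were listed in WT alone.

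Among 18 tanning and pigmentation genes 2 were hosts. stw gave 4 circles, all shared, of which stw exon 2 had between 3978 and 7505 reads a library and the others at most 21. stw exon 3 to 6 had 2 and 5 reads in Nxt1 and 21 and 13 in WT, and stw exon 4 to 6 had 11 and 11 in Nxt1 and 3 and 8 in WT, neither past the test. The stw mRNA was 314, 339 and 279 FPKM in Nxt1 and 429.9, 378 and 547 in WT, without overlap (log2 fold -0.53, adjusted p = 0.0598, limma). The other host, ple, encodes tyrosine hydroxylase, which starts the synthesis of tanning agents. ple exon 3 was listed in WT alone with 38 and 29 reads, and the ple mRNA ranged between 1621 and 5340 FPKM in Nxt1 and between 961 and 14354 in WT.

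**Figure D4:**
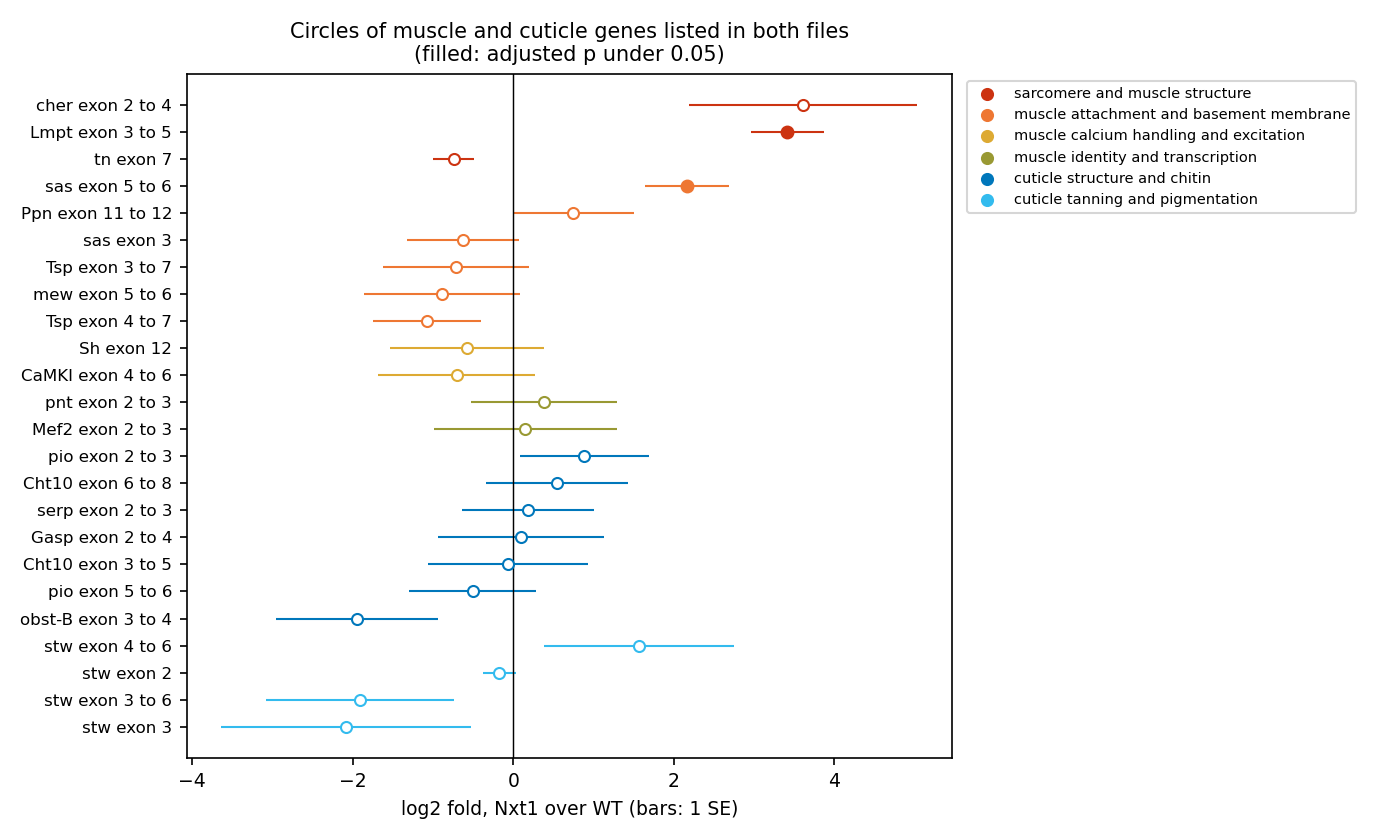
Log2 fold of Nxt1 over WT (horizontal axis, bars 1 SE) for the 24 circles in both lists whose hosts are in the muscle, attachment, calcium, muscle identity, cuticle or tanning lists (colours). Filled points passed the test: Lmpt exon 3 to 5 at 3.42 and sas exon 5 to 6 at 2.17.

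Of 30 epidermal and tracheal patterning genes 8 were hosts, with 5 shared circles, of which 1 rose (grh exon 2) and 1 fell (Eip74EF exon 2). Of 39 genes of cytoskeleton and adhesion 10 were hosts, with 5 shared circles, and none rose or fell. Further groups were put together after the host names had been seen. None of their shared circles passed the test, where 6.27% of all 335 shared circles did. Among muscle hosts these are zormin, a Z-disc protein, with exon 6 to 7 at 41 and 30 reads in Nxt1 and 43 and 75 in WT, and jp, junctophilin, with a circle in WT alone (25 and 24 reads). In moulting, Cyp18a1, which inactivates ecdysone, gave exon 2 to 4 with 10 and 11 reads in Nxt1 and 69 and 52 in WT (log2 fold -2.34, adjusted p = 0.0760, edgeR). Its mRNA fell (log2 fold -1.14, adjusted p = 0.0341, limma). The circle of shd, shade, which makes the active form of ecdysone, was listed in Nxt1 alone (32 and 26 reads).

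The strongest circle listed in Nxt1 alone was Hil exon 2 to 4, of the cytoskeletal protein hillarin, with 44 and 71 reads. It was followed by scaf exon 2 (56 and 22 reads), of a serine protease homologue of epithelial closure, and Ptx1 exon 2 (39 and 25), of a homeobox factor. Behind them were CG31688 exon 2, given above, blot exon 2 (41 and 15), of a neurotransmitter transporter family, and the shd circle. In WT alone, CG12075 exon 2 to 3 was strongest (115 and 147 reads), followed by CG46315 exon 2 (143 and 94) and CG31688 exon 2 under its other transcript. Gug exon 2 (92 and 103), of the corepressor atrophin, Trpm exon 3 to 4 (111 and 54), of a cation channel, and pk exon 3 (63 and 77), of the planar polarity protein prickle, came next. Of the 11 host genes of these circles, blot was the one whose mRNA passed the test (log2 fold 0.51, adjusted p = 0.0307, limma).

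The mRNA of the hosts was measured in the mock-treated libraries. All 510 hosts were in the mRNA table and 494 reached the minimum of 1 FPKM. Of these 56 (11.3%) rose and 52 (10.5%) fell in Nxt1, against 12.5% and 9.10% of all 8923 genes tested (limma). With quantile normalization 32 hosts (6.48%) rose and 72 (14.6%) fell, against 10.3% and 10.2% of all genes, so the balance of directions depends on the scaling. Levels of different genes are not compared, since the gene lengths behind the deposited FPKM are out of order.

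By listing class the host mRNAs divided as follows, where 12.5% of all genes tested rose and 9.10% fell (limma). A host is in a class listed alone because its circles were listed in that genotype only. A host with more RNA in a genotype may be listed there more easily, which was not tested. The shares by class are therefore a description and no independent result. Of 58 tested hosts listed in Nxt1 alone, 9 rose (15.5%) and 0 fell (limma), with 14 higher and 3 lower at an unadjusted p under 0.05. edgeR on recovered reads called 10 up (15.9%) and 0 down among 63, against 10.6% and 12% of all genes. Quantile normalization gave 5 up (8.62%) and 2 down (3.45%), against 10.3% and 10.2% of all genes. Among these hosts, leaving out any 1 of the Nxt1 replicates gave 4 up (6.9%) and 0 down. In those fits 4.98% to 6.08% of all genes rose and 3.1% to 4% fell. Leaving out WT replicate 1 gave 5 up (8.47%) and 0 down, against 5.43% and 3.25% of all genes. Without WT replicate 2 there were 8 up (13.6%) and 0 down, against 9.69% and 7.94% of all genes. Without WT replicate 3 there were 12 up (20.3%) and 4 down (6.78%), against 16.2% and 14.0% of all genes. Of 136 hosts listed in WT alone, 10 rose (7.35%) and 27 fell (19.9%). Of 300 hosts in both lists 37 rose (12.3%) and 25 fell (8.33%). Falling hosts in WT alone include InR, the insulin receptor (log2 fold -0.86, adjusted p = 0.00314), Myc, a growth regulator (log2 fold -0.82, adjusted p = 0.0123), and the protocadherin gene ft (log2 fold -0.60, adjusted p = 0.0166, all limma). Rising hosts in Nxt1 alone include Pgi, a glycolytic enzyme (log2 fold 1.72, adjusted p = 0.00704, limma), beside Prm and Cam; InR, Myc, ft and Pgi were chosen after their values were seen. Leaving out a library kept the fall among WT-alone hosts between 8.82% and 28.7%, against 3.10% to 14.0% of all genes in those fits. A difference between the host classes was not tested.

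Across 333 circles with a tested host, Spearman's rho of the log2 folds was 0.135 and Pearson's r 0.092, as a description, since circles share libraries and some share a host. Of the 9 circles that rose, 1 had a host mRNA that rose (CG30427) and 0 had one that fell. Of the 12 circles that fell, 3 had a host mRNA that fell (Src42A, Lnk, CG6006) and 2 one that rose (myd, CG7378). Of the 300 tested hosts in both lists 12.3% rose and 8.33% fell (limma). A difference of these few circles from those shares was not tested.

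**Figure D5:**
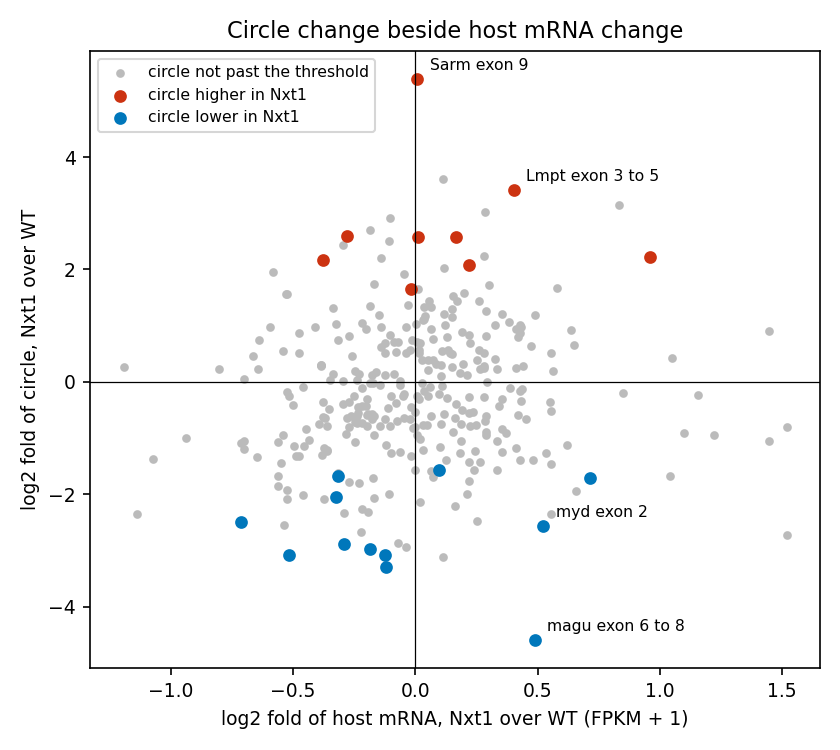
Log2 fold of the circle (vertical axis) against log2 fold of its host mRNA on FPKM + 1 (horizontal axis), both Nxt1 over WT, for 333 circles in both lists. Red and blue circles passed the test as higher or lower in Nxt1; Sarm exon 9 stands at 5.39 with its host mRNA at 0.01.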

How the data were processed

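Back-splice read counts of the RNase R libraries are those the authors deposited. Beside them stand the values that the authors scaled to 1e+09 library reads, called BPM per the file headers. No source used here gives the circle caller, the rule for listing a circle, the genome build or why 2 of 3 libraries are given. Library totals were taken as reads over scaled value. Circles in both lists were tested with edgeR 4.0.16 in R 4.3.3 (quasi-likelihood, offset of the log library total, no minimum count), with Benjamini-Hochberg adjustment over 335 circles. The fit was tested on simulated data of 335 circles. It called 4.6% of 2-fold, 26.7% of 4-fold and 53.3% of 8-fold changes, and 1.8% of its calls were false. A circle that did not pass may therefore still differ. The simulated reads followed the dispersion of the fit itself and the library totals, with no further shift between libraries. The share of false calls among the real calls was thus not measured.

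The authors deposited FPKM for mRNA, per the labels. Genes averaging 1 FPKM or more went into limma 3.58.1 on log2(FPKM + 1), with trend, and folds of low genes are understated on that scale. The mock-treated libraries held 18894036 to 31739216 recovered mRNA reads, and 99.99% of genes gave whole reads within 0.01. STAR 2.5.3a, Trimmomatic 0.36, featureCounts 1.6.2, Subread and DESeq2 appear in the submitters' processing notes, without roles. Per the labels' protocols 1 ug of RNA met 20 units of RNase R at 37 °C for 30 min.

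Named circles were the top 8 rises and top 8 falls that passed the threshold, with at least 10 reads on average and no overlap, the 8 most abundant, the 6 most abundant in each list alone, and those of the muscle and cuticle lists past the threshold; other circles are given as examples of their list. The members and lists were chosen with earlier results of these data known. Alternatives were DESeq2 1.42.0, limma, median-of-ratios factors, read minimums, other matching and leaving out each library; matching by host and exon numbers was chosen after seeing the data.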

Additional observations from a re-analysis of the deposited data

How the results depend on the processing

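The circle calls depended on the settings. Median-of-ratios factors gave 25 higher and 20 lower with a median log2 fold of 0.0038, and DESeq2 gave 14 higher and 24 lower among 250 circles. Leaving out 1 library gave 3 to 16 higher, 4 to 21 lower and a median between -0.46 and -0.16. Among the named circles 208 results kept their side of the threshold, 36 lost it and 6 gained it. The sign changed in 2 results, both of circles that did not pass: stw exon 2 was 0.0357 without the deepest Nxt1 library and Gyg exon 2 to 4 was 0.0265 with median-of-ratios factors. With a minimum of 10 reads in each library 209 circles counted as shared, 59 as Nxt1 alone and 161 as WT alone, and with 5 reads 77 as Nxt1 alone. Circles of both lists that met the minimum in 1 genotype only may be counted there as alone. These counts thus do not show how many circles listed alone had that many reads. Matching by host gene gave 64 hosts in Nxt1 alone and 144 in WT alone. Quantile normalization gave 32 hosts with higher mRNA. Leaving out 1 mRNA library gave 15 to 79 higher and 22 to 104 lower hosts. The highest, 79 and 104, came without WT replicate 3. The cause was not tested. Deviations from the group means had correlations of -0.081, -0.123 and -0.286 between same-numbered mRNA libraries. With 3 libraries a group, such deviations cannot show whether same-numbered libraries were paired. A replicate block gave 13 higher and 19 lower hosts. No paired analysis was possible for the circles because their columns carry no replicate number. With 2 libraries per circle and genotype, the shared circles had a median of 26.5 reads in Nxt1 and 43.5 in WT, and the common biological coefficient of variation of the edgeR fit was 0.475.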
